A study of Rattus norvegicus with 40 samples.

Results

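The mRNAs of the aryl hydrocarbon receptor (AHR) complex and of its feedback enzyme were followed across 40 rat livers, each hybridized to its own Affymetrix RAE230A array. The members were Ahr, Arnt, Hsp90aa1, Hsp90ab1, Ptges3 and Tiparp, and every probe set that the platform annotation assigns to these symbols was taken. Of 15866 probe sets that are no controls, 7 carry a single member symbol: 1369146_a_at and 1369147_at for Ahr, 1369244_at for Arnt, 1375335_at and 1375336_at for Hsp90ab1, 1371372_at for Ptges3 and 1374446_at for Tiparp. Hsp90aa1 has no probe set of its own here. Probe sets 1372701_at and 1388850_at are listed for both Hsp90aa1 and its pseudogene Hsp90aa1-ps17, so their signals cannot be split between the genes, and they are described beside the 7 without being counted among them.

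All rats were males of 10 to 12 weeks, gavaged once with 100 µg/kg of the dioxin TCDD or with corn oil, the vehicle. The TCDD groups at 19 h and the corn oil groups at 19 h covered H/W (Han/Wistar), LnA (Line A), L-E (Long-Evans) and LnC (Line C) rats, and TCDD-treated H/W and L-E rats were also taken at 3 h, with 4 rats in each of the 10 groups. H/W and LnA rats are dioxin-resistant and their AHR lacks a piece of the transactivation domain, whereas L-E and LnC rats are dioxin-sensitive and have wildtype AHR. Both lines descend from matings between the H/W and L-E strains. A whole treatment group shared a cage, so cage and treatment cannot be told apart. No corn oil rats were sampled at 3 h. Array headers place the arrays on 5 scan days: the 19 h arrays of H/W (days 1 to 3) and of L-E (days 1 and 2) had treated and control rats on each day, while all LnA and LnC arrays fell on day 4 and all 3 h arrays on day 5.

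In the absence of ligand, the AHR protein rests in the cytosol with a dimer of HSP90 and with co-chaperones that include p23, the product of Ptges3. Ligand binding sends AHR to the nucleus, where it pairs with ARNT and binds DNA elements built on the core GCGTG, switching on genes such as Cyp1a1. Tiparp (also called Parp7) encodes a mono-ADP-ribosyltransferase that is itself an AHR target and that, in mouse and human cells, represses AHR activity.

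Promoter sequences are shown for Tiparp, Ahr and Hsp90ab1, the members whose signals changed in at least 1 comparison described here. They run from 250 bases before to 50 bases after the RefSeq gene start in assembly GRCr8, on the gene's strand, with the AHR core GCGTG or its reverse complement CACGC in capitals.
Tiparp, chr2:152063519-152063818, plus strand: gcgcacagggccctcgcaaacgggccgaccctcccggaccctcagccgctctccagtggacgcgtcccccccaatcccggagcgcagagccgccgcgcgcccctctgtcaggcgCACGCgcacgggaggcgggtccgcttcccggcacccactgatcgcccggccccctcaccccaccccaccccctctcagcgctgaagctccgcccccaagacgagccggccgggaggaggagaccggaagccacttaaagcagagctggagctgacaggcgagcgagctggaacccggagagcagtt
Ahr, chr6:57998852-57999151, minus strand: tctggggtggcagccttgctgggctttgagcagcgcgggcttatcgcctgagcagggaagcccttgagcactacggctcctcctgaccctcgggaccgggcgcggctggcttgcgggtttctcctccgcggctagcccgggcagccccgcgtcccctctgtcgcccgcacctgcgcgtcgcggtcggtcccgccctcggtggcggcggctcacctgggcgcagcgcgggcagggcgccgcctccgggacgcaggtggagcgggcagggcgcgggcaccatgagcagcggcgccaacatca
Hsp90ab1, chr9:22930173-22930472, plus strand: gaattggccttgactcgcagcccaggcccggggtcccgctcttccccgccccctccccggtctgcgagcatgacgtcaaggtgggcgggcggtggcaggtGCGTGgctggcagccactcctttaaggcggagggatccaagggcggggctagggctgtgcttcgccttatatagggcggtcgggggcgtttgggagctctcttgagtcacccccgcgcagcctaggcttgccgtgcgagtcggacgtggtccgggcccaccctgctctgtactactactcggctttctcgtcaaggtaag

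Promoters were found for 5 of the 6 genes. The core GCGTG, searched on both strands, occurred in 29.7% of 33469 rat promoters of the same length. It lay 1 time in the Tiparp window, at positions -136 to -132 from the gene start, 1 time in Hsp90ab1, 1 time in Arnt and 4 times in Ptges3, of which 2 overlap, and 0 times in the Ahr window. The longer motif TNGCGTG, which contains the core and occurred in 4.89% of promoters, was in 0 of the 5 windows. GAANNTTC, the paired unit of heat shock elements (8.59% of promoters), was likewise in 0 of the 5. Such matches describe these letters only and say nothing of binding.

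The deposited values are log2 signals, so a difference of 1 means a 2-fold signal. Arrays had median log2 signals of 3.52 to 3.76. Tiparp, Hsp90ab1, Ptges3 and the probe sets shared by Hsp90aa1 were above the median of their array in all 40 livers. In contrast, Ahr 1369147_at was below it in 40 of 40 arrays, Ahr 1369146_a_at in 30 and Arnt in 28, so these signals lie at the low end of the array scale. Of 9 measured hepatocyte markers, 0 lay below every array median. A lower share of a cell type and less RNA per cell cannot be told apart in whole liver.

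Of the members, Tiparp had the largest TCDD responses in all 4 strains/lines. Its log2 signal in H/W rats was 11.08, 10.57, 9.56 and 10.54 at 19 h after TCDD, against 5.97, 5.68, 6.85 and 5.76 after corn oil. In LnA rats it was 9.47, 9.88, 10.72 and 10.74 after TCDD, against 7.21, 6.29, 7.38 and 7.61 after corn oil. The corn oil rats of LnA thus included the highest Tiparp signals of any untreated liver. In L-E rats the values were 10.74, 10.18, 10.89 and 9.54 after TCDD, against 5.84, 5.64, 6.85 and 5.74 after corn oil. In LnC rats they were 10.45, 10.67, 9.74 and 10.36 after TCDD, against 5.96, 6.89, 6.89 and 5.29 after corn oil. Treated and untreated livers did not overlap in any strain/line: the 24 TCDD arrays of both times lay between 9.06 and 11.26, and the 16 corn oil arrays between 5.29 and 7.61.

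**Figure D1:**
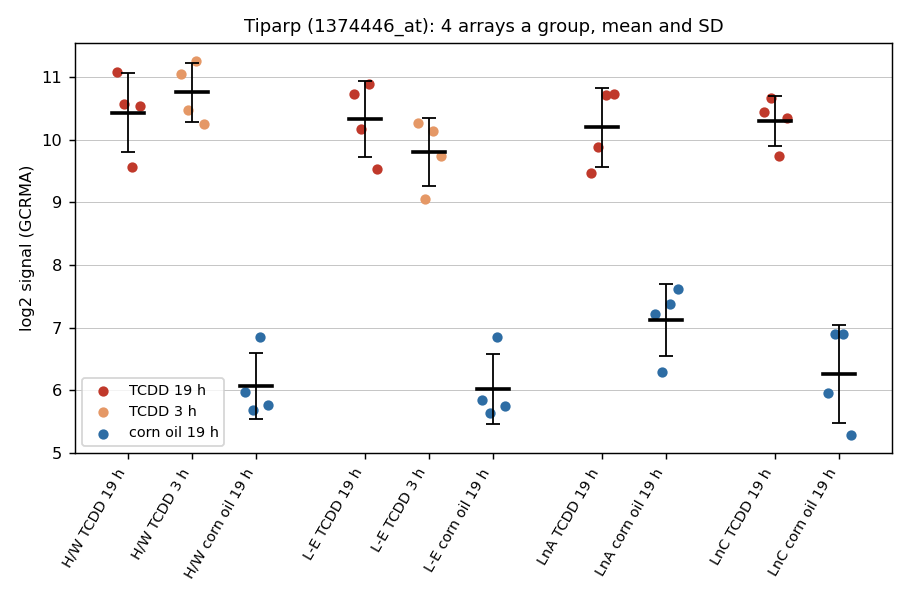
Tiparp log2 signal (vertical axis) in the 10 groups (horizontal axis), with 1 point per liver, the group mean as a line and the SD as error bars. All TCDD points, red for 19 h and orange for 3 h, lie at or above 9.06, and all corn oil points, blue, lie at or below 7.61.

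Tiparp rose in each strain/line at 19 h by limma's moderated test with Benjamini-Hochberg adjustment over all 15866 probe sets and a threshold of 0.01. The log2 difference between TCDD and corn oil was 4.37 (SE 0.37, 20.7-fold, adjusted p = 0.00217) in H/W and 4.32 (SE 0.38, 20.0-fold, adjusted p = 0.00203) in L-E. It was 4.05 (SE 0.40, 16.5-fold, adjusted p = 0.00315) in LnC and 3.08 (SE 0.38, 8.44-fold, adjusted p = 0.00921) in LnA. By size of the increase, Tiparp ranked 5 of 15866 in H/W and in L-E, 4 in LnC and 8 in LnA. With any 1 array left out, the difference ranged from 2.80 to 3.32 in LnA, from 4.16 to 4.66 in H/W and from 3.72 to 4.26 in LnC. The LnA call was lost without any 1 of its 8 arrays (adjusted p up to 0.0332) and when the replicate number was added as a block (0.0233). The H/W call was lost when TCDD replicate 2 (0.0107) or 4 (0.0133) or corn oil replicate 1 (0.0147) was left out, and with scan day as a block (0.0206). Within scan days 1, 2 and 3, Tiparp was higher by 5.10, 3.80 and 4.77 in H/W. Days 1 and 3 held only 1 H/W array of each treatment at 19 h, and day 2 held 2 of each. The LnC call was lost when TCDD replicate 1 (0.0110), 2 (0.0145) or 4 (0.0154) or corn oil replicate 1 (0.0179) was left out. With the replicate block, the Tiparp call was also lost in H/W (0.0433) and LnC (0.0446) and held in L-E (0.00950). In L-E the call held without any 1 array, and Tiparp was higher by 4.90 on day 1 (1 array of each treatment) and 4.13 on day 2 (3 of each).

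The Tiparp response was compared between strains/lines that differ in AHR genotype. They also differ in strain or line, so genotype cannot be told apart from these. The confidence intervals come from the spread between rats, not between strains/lines. The mean log2 response was 3.72 in the resistant strains/lines and 4.18 in the sensitive ones, a difference of -0.46 (95% CI -1.31 to 0.39, limma adjusted p = 0.554). H/W minus L-E gave 0.05 (95% CI -1.15 to 1.25, adjusted p = 0.962), and LnA minus LnC gave -0.97 (95% CI -2.22 to 0.28, adjusted p = 0.975). These tests called 0 of the 7 member probe sets. Over all probe sets, 0.0630% were called in the collective comparison, 0.0315% in H/W minus L-E and 0.0693% in LnA minus LnC. At an unadjusted p under 0.05 there were 2 of 7 members in the collective comparison (7.39% of all probe sets), 1 of 7 in H/W minus L-E (9.47%) and 0 of 7 in LnA minus LnC (4.07%).

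The Tiparp levels of the 10 groups fell into an upper and a lower block. In the upper block the group means were 10.76 ± 0.47 in H/W at 3 h, 10.44 ± 0.63 in H/W, 10.34 ± 0.61 in L-E, 10.30 ± 0.40 in LnC and 10.20 ± 0.63 in LnA at 19 h, and 9.80 ± 0.55 in L-E at 3 h (SD, n = 4 each), and neighbours in this order overlapped in their values. At 3 h the H/W signals were 11.06, 10.48, 11.26 and 10.25, against 10.28, 9.06, 10.14 and 9.75 in L-E. The H/W minus L-E difference at 3 h was 0.96 (95% CI 0.18 to 1.73) and did not pass the test (limma adjusted p = 0.104). Between 19 h and 3 h after TCDD, Tiparp differed by -0.32 (95% CI -1.17 to 0.52, adjusted p = 0.514) in H/W and by 0.53 (95% CI -0.35 to 1.42, adjusted p = 0.418) in L-E. In the lower block, corn oil means were 7.12 ± 0.58 in LnA, 6.26 ± 0.78 in LnC, 6.07 ± 0.53 in H/W and 6.02 ± 0.56 in L-E (SD, n = 4 each), again with overlap between neighbours. The 1.06 higher corn oil mean of LnA than of H/W did not pass the test (adjusted p = 0.209), nor did the 0.87 of LnA over LnC (adjusted p = 0.628).

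Counted over the members, 1 of 7 probe sets was called higher and 0 lower in H/W, 1 and 0 in L-E, 1 and 0 in LnA, and 2 and 0 in LnC. Across all probe sets, 0.284% were called higher and 0.0819% lower in H/W, 0.775% and 0.901% in L-E, 0.536% and 0.246% in LnA, and 0.523% and 0.378% in LnC. Treated and control livers did not overlap for 3 of 7 member probe sets in H/W, 2 in L-E, 1 in LnA and 2 in LnC, beside 7.31%, 11.6%, 7.73% and 8.57% of all probe sets in these strains/lines.

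**Figure D2:**
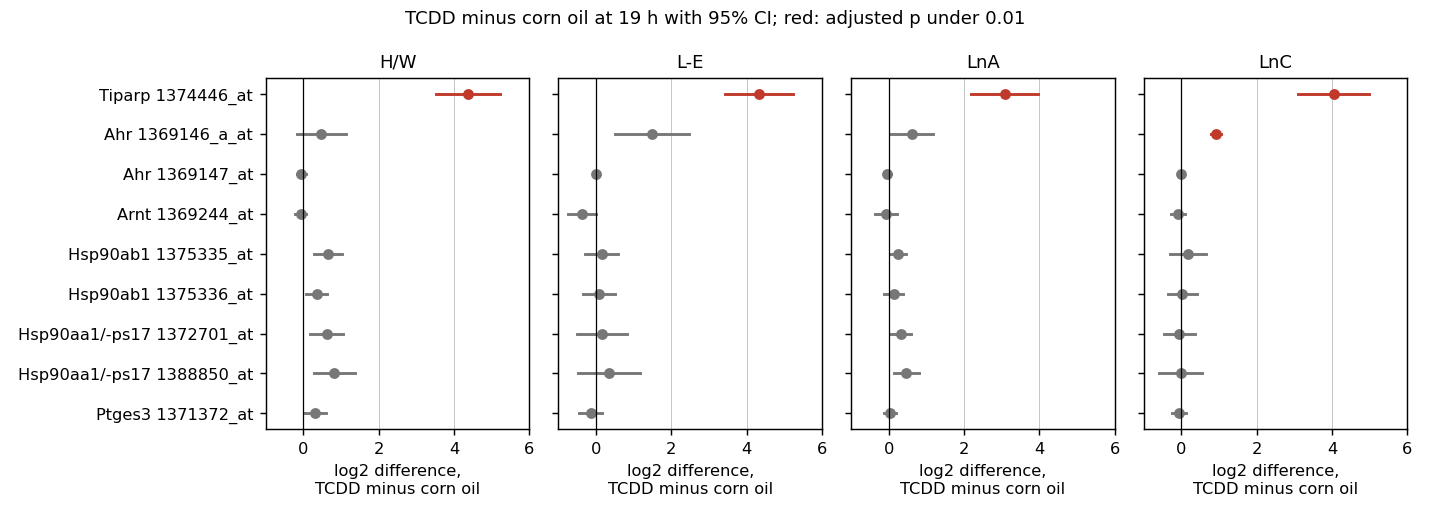
Log2 difference between TCDD and corn oil at 19 h (horizontal axis) for the 9 probe sets (vertical axis) in each strain/line, with 95% confidence intervals and with red for an adjusted p under 0.01. Tiparp lies between 3.08 and 4.37 in the 4 panels, and the other red point is Ahr 1369146_a_at in LnC, at 0.91.

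Ahr, the receptor itself, was read by a pair of probe sets that behaved differently. Probe set 1369147_at stayed between 2.97 and 3.21 on all 40 arrays, and 0 comparisons called it. Probe set 1369146_a_at reached its highest signals in L-E livers, at 4.19, 5.71, 5.29 and 5.74 at 19 h after TCDD, against 2.99, 4.19, 3.91 and 3.92 after corn oil. The lowest treated value lay just above the highest control value. The L-E difference was 1.48 (SE 0.41, 2.80-fold) and did not pass the threshold (limma adjusted p = 0.105). It passed with scan day as a block (adjusted p = 0.00526). It also passed in a fit that shares the spread of all 8 groups at 19 h (adjusted p = 0.00138). The difference was 1.21 on day 1 (1 array of each treatment) and 1.58 on day 2 (3 of each).

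In LnC the same Ahr probe set rose within a low and narrow range, with TCDD values of 3.03, 3.06, 3.12 and 3.06 against 2.04, 2.14, 2.15 and 2.29 after corn oil. The difference was 0.91 (SE 0.05, 1.88-fold, limma adjusted p = 0.000498), with both groups below every array median. It was called without any 1 array but not in the fit sharing the spread of all 8 groups (adjusted p = 0.0769). With the replicate block the call was lost as well (adjusted p = 0.0215). Beside this difference, the 3' minus 5' log2 signal of the GAPDH control probe sets was 0.153 to 0.260 in TCDD-treated LnC livers and 0.272 to 0.487 in corn oil livers. The log2 of the summed signals of the 8 measured of 10 macrophage and other immune cell markers was 11.47 to 11.86 after TCDD and 11.91 to 12.18 after corn oil. This and all later marker sums add unlogged signals, so the brightest markers weigh most. Cd79b, a B cell gene, was the only 1 of these 8 below every array median. The part of either in the result was not tested.

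In the resistant rats Ahr 1369146_a_at was 3.16, 2.99, 4.41 and 3.46 in TCDD-treated H/W livers, against 3.07, 3.03, 2.97 and 3.04 after corn oil. In LnA livers it was 3.60, 3.05, 2.71 and 3.04 after TCDD, against 2.16, 3.03, 2.37 and 2.32 after corn oil. Treated and control rats overlapped in both. The differences were 0.48 (95% CI -0.18 to 1.13, limma adjusted p = 0.594) in H/W and 0.63 (95% CI 0.07 to 1.19, adjusted p = 0.320) in LnA. The response of the resistant collective was 0.55 and that of the sensitive collective 1.20, a difference of -0.65 (95% CI -1.26 to -0.03) that did not pass the test (adjusted p = 0.540).

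Arnt, the nuclear partner of AHR, gave 3.54, 3.77, 3.52 and 4.05 in TCDD-treated L-E livers, against 4.09, 4.34, 3.78 and 4.16 after corn oil. Of these control values, 3 were the highest Arnt signals in any corn oil liver, and the groups overlapped. The difference of -0.37 (SE 0.16) did not pass the test (limma adjusted p = 0.300). In the other strains/lines the Arnt differences were -0.08 in H/W, -0.07 in LnA and -0.09 in LnC, with adjusted p of 0.617, 0.905 and 0.913.

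**Figure D3:**
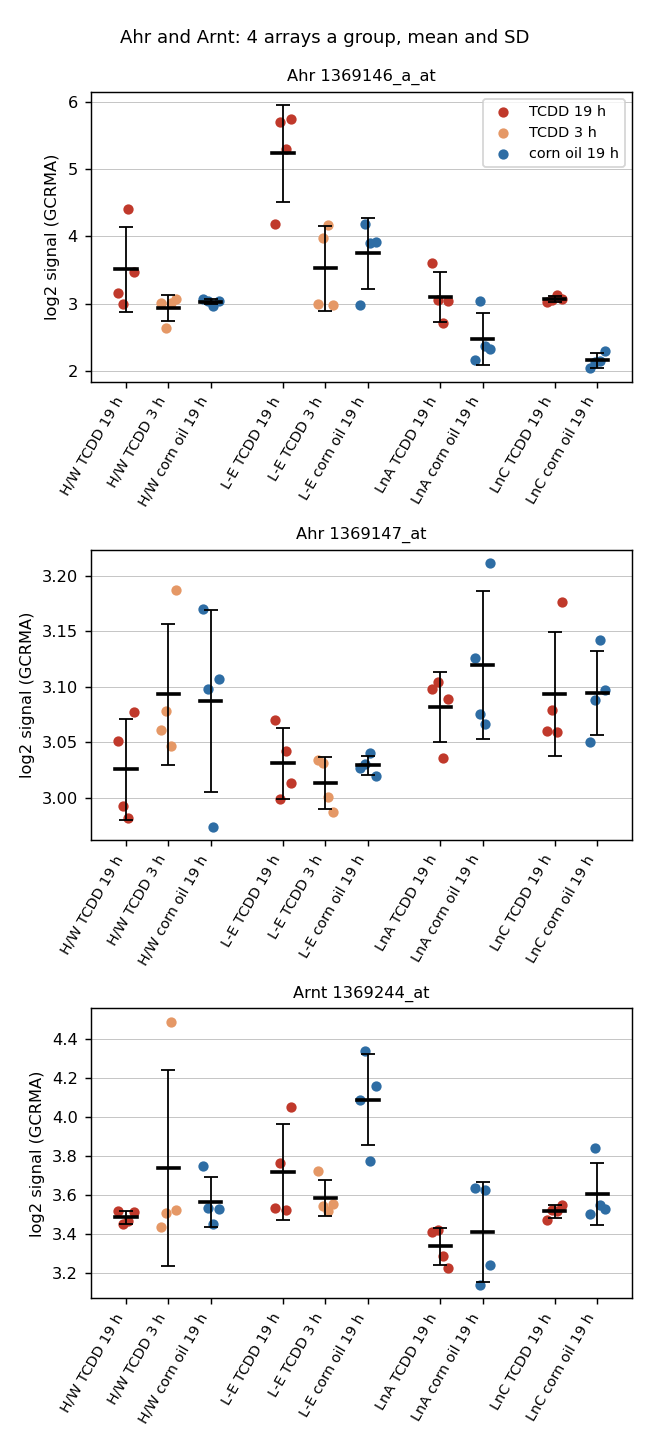
Log2 signal (vertical axes, each panel with its own scale) of Ahr 1369146_a_at, Ahr 1369147_at and Arnt in the 10 groups, with 1 point per liver, the mean as a line and the SD as error bars. Ahr 1369146_a_at reaches 5.74 in L-E after TCDD, Ahr 1369147_at spans only 2.97 to 3.21, and Arnt lies at 3.78 to 4.34 in L-E after corn oil.

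The chaperone genes did not pass the test for TCDD in any strain/line at 19 h, and their largest differences were in H/W. Hsp90ab1 encodes the constitutive HSP90 beta, and its probe set 1375335_at was 11.98, 12.58, 12.02 and 11.99 in TCDD-treated H/W livers, against 11.65, 11.69, 11.24 and 11.38 after corn oil. All treated H/W livers lay above all controls, with a difference of 0.65 (SE 0.16, limma adjusted p = 0.147). The second Hsp90ab1 probe set, 1375336_at, differed by 0.36 (SE 0.12, adjusted p = 0.303), again without overlap. The probe sets shared by Hsp90aa1, the stress-inducible HSP90 alpha, and its pseudogene differed by 0.62 (1372701_at, adjusted p = 0.248) and 0.82 (1388850_at, adjusted p = 0.212) in H/W, also without overlap. Beside these H/W values, the summed immune markers were 11.06 to 11.44 after TCDD and 11.47 to 11.81 after corn oil, and their part was not tested. Ptges3 differed by 0.30 (adjusted p = 0.419) with overlapping groups.

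In the other strains/lines the chaperone differences were smaller. Hsp90ab1 1375335_at differed by 0.25 in LnA (95% CI 0.03 to 0.46), 0.15 in L-E and 0.17 in LnC, and Ptges3 by 0.03 in LnA, -0.14 in L-E and -0.06 in LnC. In LnA the shared probe sets differed by 0.32 (1372701_at, 95% CI 0.06 to 0.58, limma adjusted p = 0.264) and 0.47 (1388850_at, 95% CI 0.13 to 0.80, adjusted p = 0.189). They differed by 0.15 and 0.34 in L-E and by -0.05 and -0.02 in LnC. The tests of H/W minus L-E gave 0.50 for Hsp90ab1 1375335_at (95% CI -0.05 to 1.06, limma adjusted p = 0.542) and 0.45 for Ptges3 (95% CI 0.04 to 0.85, adjusted p = 0.494).

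In H/W the Hsp90ab1 differences between times were larger than those between treatments, a contrast that was not itself tested. Its 1375335_at signals in H/W livers were 11.98, 12.58, 12.02 and 11.99 at 19 h after TCDD, as above, against 10.92, 10.91, 10.87 and 10.92 at 3 h. Its 1375336_at signals were 13.26, 13.52, 13.22 and 13.11 at 19 h, against 12.42, 12.29, 12.21 and 12.22 at 3 h. These 3 h livers lay below every treated H/W liver of 19 h, and below the H/W corn oil livers of 19 h as well (11.24 to 11.69 for 1375335_at and 12.64 to 13.06 for 1375336_at). The 19 h minus 3 h difference was 1.24 (SE 0.13, 2.36-fold, limma adjusted p = 0.00193) for 1375335_at and 0.99 (SE 0.09, 1.99-fold, adjusted p = 0.00105) for 1375336_at. The shared probe sets 1372701_at and 1388850_at were higher at 19 h by 1.12 (adjusted p = 0.00730) and 1.50 (adjusted p = 0.00456). With scan day as a random block the shared calls were lost (0.0317 and 0.0221), and both Hsp90ab1 calls stayed under the threshold (0.00900 and 0.00518). No scan day held arrays of both times, so this block cannot separate scan day from time, and nothing about scan day is read from it. The shared calls were also lost without any 1 of the 4 replicates of 3 h or without replicate 1 of 19 h, and that of 1372701_at without replicate 3 of 19 h (adjusted p up to 0.0260 for 1372701_at and 0.0167 for 1388850_at). Quantile normalization ended both shared calls (0.01556 and 0.01055), and median centring that of 1372701_at (0.01195). With the replicate block all 4 calls were lost, at 0.02058 for 1375335_at, 0.01363 for 1375336_at, 0.01889 for 1372701_at and 0.01563 for 1388850_at.

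In L-E the same Hsp90ab1 probe sets were also separated by time, at 11.99, 12.53, 11.71 and 11.77 for 1375335_at at 19 h, against 11.44, 11.13, 11.23 and 11.13 at 3 h. The difference of 0.77 (SE 0.18) did not pass the threshold (limma adjusted p = 0.0488), nor did the 0.51 of 1375336_at (adjusted p = 0.136). The calls counted 2 of 7 members in H/W and 0 of 7 in L-E, beside 4.25% and 3.44% of all probe sets. At an unadjusted p under 0.05 there were 3 of 7 members in L-E, beside 3652 of all 15866 probe sets. The difference between the strains in this time step was tested after seeing these values. It was 0.47 for 1375335_at (95% CI -0.04 to 0.98, adjusted p = 0.265) and 1.28 for 1388850_at (95% CI 0.34 to 2.21, adjusted p = 0.250). It called 0 of 7 members and 0.0567% of all probe sets, and at an unadjusted p under 0.05 there were 2 of 7 members, beside 19.1% of all probe sets. Every 3 h array was scanned on day 5, so time after dosing cannot be told apart from scan day. Without corn oil rats at 3 h, a difference between the sampling times that is unrelated to TCDD cannot be set apart either. The summed level of 9 stellate and endothelial cell markers, 4 of them (Des, Rgs5, Pecam1 and Vwf) below every array median, was 10.48 to 10.61 in H/W at 19 h and 10.30 to 10.41 in H/W at 3 h, and its part was not tested. In L-E, the 4 measured of 5 bile duct markers (Krt7 and Spp1 below every array median) summed to 5.57 to 5.73 at 19 h and 5.75 to 6.16 at 3 h. The 6 measured of 9 blood, pancreas and fat markers (Prss1, Cpa1 and Plin1 below every array median) summed to 12.02 to 13.03 at 19 h and 11.42 to 11.93 at 3 h in L-E. The part of either was not tested.

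At 3 h itself, H/W livers had lower Hsp90ab1 signals than L-E livers, at 10.92, 10.91, 10.87 and 10.92 against 11.44, 11.13, 11.23 and 11.13 for 1375335_at, with no overlap. The difference of -0.33 (SE 0.07) missed the threshold (limma adjusted p = 0.0406), as did the -0.29 of 1375336_at (adjusted p = 0.0529). The test called 0 of 7 members, beside 1.77% of all probe sets. At an unadjusted p under 0.05 there were 4 of 7 members, beside 39.3% of all probe sets. Summed immune markers were 11.24 to 11.80 in H/W and 12.41 to 12.78 in L-E at 3 h, and summed hepatocyte markers 18.00 to 18.04 in H/W and 18.13 to 18.16 in L-E. The 3' minus 5' log2 signal of the actin control probe sets was 1.95 to 2.12 in H/W and 1.78 to 1.91 in L-E at 3 h. The part of these in the result was not tested.

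**Figure D4:**
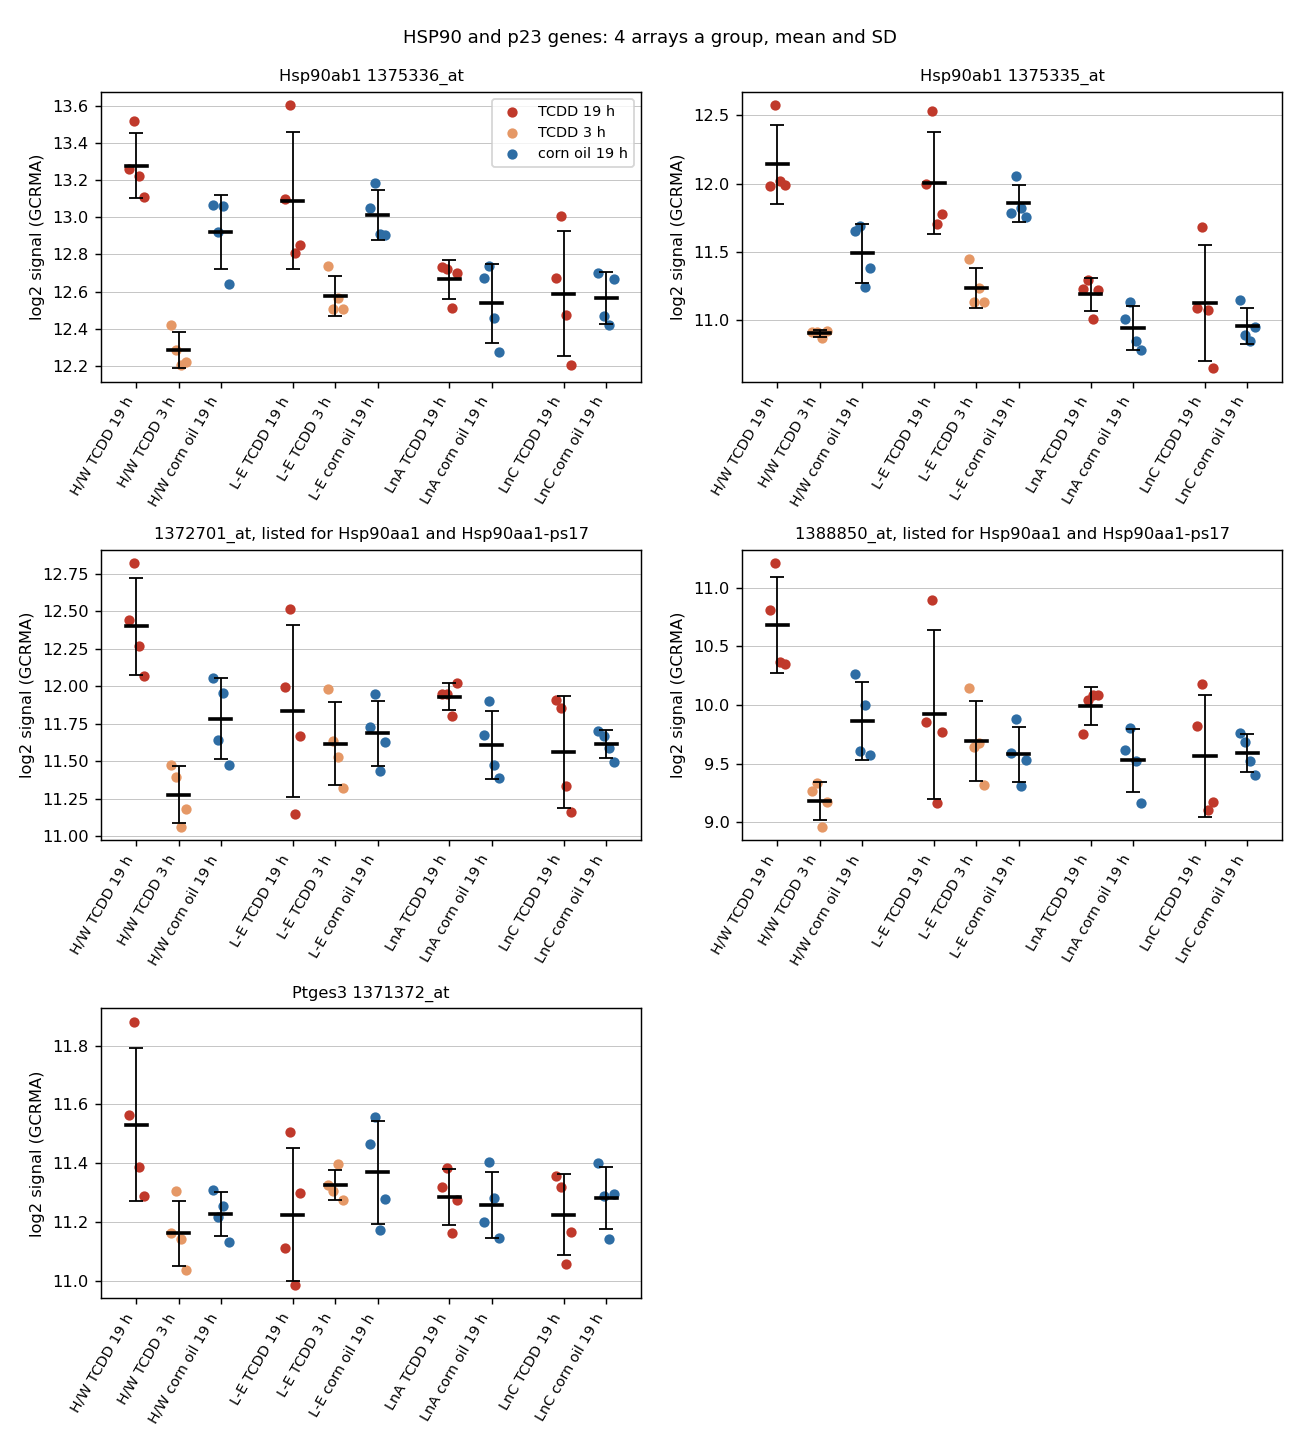
Log2 signal (vertical axes, each panel with its own scale) of the Hsp90ab1 probe sets, the probe sets listed for Hsp90aa1 and its pseudogene, and Ptges3 in the 10 groups, with 1 point per liver, the mean as a line and the SD as error bars. In H/W, the orange 3 h points of Hsp90ab1 1375335_at lie at 10.87 to 10.92 and the red 19 h points at 11.98 to 12.58.

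Levels without TCDD were compared in corn oil livers. Ahr and Hsp90ab1 each had a probe set that was lower in LnC than in L-E, the wildtype AHR pair. Ahr 1369146_a_at was 2.04, 2.14, 2.15 and 2.29 in LnC, against 2.99, 4.19, 3.91 and 3.92 in L-E, a difference of -1.60 (SE 0.22, limma adjusted p = 0.00114). The LnC values lie below every array median, so the size of this difference rests on the low end of the scale. Hsp90ab1 1375335_at was 11.14, 10.89, 10.85 and 10.95 in LnC, against 11.79, 12.05, 11.82 and 11.76 in L-E, a difference of -0.90 (SE 0.11, 1.86-fold lower, adjusted p = 0.000577). Both pairs of groups were fully separated, and both calls held with scan day as a random block (0.00328 and 0.00188). The second Hsp90ab1 probe set, 1375336_at, differed in the same direction, by -0.45, but missed the threshold (adjusted p = 0.0396). All LnC and no L-E arrays were scanned on day 4, so the difference between LnC and L-E cannot be told apart from scan day. The random block cannot separate them either. The summed hepatocyte markers were 18.12 to 18.19 in LnC and 18.04 to 18.11 in L-E, and their part was not tested.

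In the resistant pair, Hsp90ab1 1375335_at was 11.01, 11.13, 10.85 and 10.78 in LnA corn oil livers, against 11.65, 11.69, 11.24 and 11.38 in H/W. These groups did not overlap, and the difference of -0.55 (SE 0.11) lay just outside the threshold (limma adjusted p = 0.0122). It passed without H/W replicate 3 (adjusted p = 0.00688) and not with scan day as a random block (0.0266). That H/W array had the highest 3' minus 5' signal of GAPDH (0.638) and actin (2.37) and the lowest mean correlation with its group (0.992) of the 40 arrays. All LnA and no H/W arrays were scanned on day 4, so the difference cannot be told apart from scan day. Summed immune markers ranged over 11.07 to 11.16 in LnA livers, against 11.47 to 11.81 in H/W livers, and summed hepatocyte markers over 18.09 to 18.19 in LnA, against 18.01 to 18.08 in H/W. The part of these in the result was not tested. Between LnA and LnC, scanned on the same day, Hsp90ab1 1375335_at differed by -0.02 (95% CI -0.25 to 0.22) and Ahr 1369146_a_at by 0.32 (95% CI -0.16 to 0.79). Between H/W and L-E, Ahr 1369146_a_at differed by -0.72 (95% CI -1.20 to -0.24, adjusted p = 0.127) and Arnt by -0.53 (adjusted p = 0.0622), and the Ahr difference passed without L-E replicate 1 (adjusted p = 0.00757). Summed immune markers were 11.47 to 11.81 in H/W and 11.84 to 12.35 in L-E corn oil livers, and their part was not tested.

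Over the members, the corn oil comparisons called 2 of 7 in LnC minus L-E and 0 of 7 in LnA minus H/W, H/W minus L-E and LnA minus LnC. Across all probe sets, 2.28% were called in LnC minus L-E, 1.70% in LnA minus H/W, 0.813% in H/W minus L-E and 0.378% in LnA minus LnC. At an unadjusted p under 0.05 there were 4 of 7 members in LnA minus H/W, 3 of 7 in H/W minus L-E and 0 of 7 in LnA minus LnC, beside 15.6%, 16.3% and 8.44% of all probe sets.

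The genes that AHR switches on were read beside Tiparp. Of 8 listed AHR target genes, 6 were measured by a probe set of their own. All 6 were called higher in LnA, L-E and LnC, and 4 of 6 in H/W. Cyp1a1 and Nfe2l2 were also higher in H/W but missed the threshold (limma adjusted p = 0.0155 and 0.0193). Of 10411 genes, 0.394% were called in either direction in H/W, 0.912% in LnA, 1.86% in L-E and 1.05% in LnC. The median log2 difference of the 6 was 7.08 in H/W, 5.42 in LnA, 6.30 in L-E and 6.09 in LnC, against medians over all genes of -0.04, -0.01, 0.01 and 0.00. Aldh3a1, an aldehyde dehydrogenase, rose by 9.83 in H/W, 9.45 in LnA, 11.14 in L-E and 10.36 in LnC. Cyp1b1, a cytochrome P450 of steroid and xenobiotic metabolism, rose by 7.87 in H/W, 7.43 in LnA, 9.49 in L-E and 8.85 in LnC. Corn oil means of both genes were 2.82 to 3.84, near the lower end of the scale.

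Cyp1a1, the classical marker of AHR activation, rose by 8.73 in LnA, 10.55 in L-E and 9.45 in LnC. In H/W its difference was 10.47 (SE 1.35, adjusted p = 0.0155), outside the threshold. Treated means were 14.42 to 14.53 in all 4 strains/lines with an SD of at most 0.15, whereas corn oil means were 3.98 to 5.70 with an SD of 1.44 to 3.03, so no order of the strains/lines is read from the Cyp1a1 differences. Nqo1, a quinone reductase, rose by 6.29 in H/W, 3.40 in LnA, 3.11 in L-E and 3.34 in LnC. Its corn oil mean was 5.16 in H/W, 8.70 in LnA, 9.42 in L-E and 8.82 in LnC. Cyp1a2, a liver cytochrome P450, averaged 15.34 after TCDD and 14.04 after corn oil in H/W and rose there by 1.30. Nfe2l2, which encodes the oxidative stress factor NRF2, rose by 1.38 in LnA, 2.17 in L-E and 1.71 in LnC, and differed by 1.46 in H/W (adjusted p = 0.0193). With the replicate block, the LnA calls of Cyp1a1 (adjusted p = 0.0471), Nqo1 (0.0405), Cyp1a2 (0.0158) and Nfe2l2 (0.0283) were lost, and those of Aldh3a1 and Cyp1b1 held. Leaving out 1 array also ended calls of Cyp1a1 in LnA and L-E (adjusted p up to 0.0337), of Nqo1 in H/W and LnA (up to 0.0246) and of Nfe2l2 in LnA, L-E and LnC (up to 0.0327).

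At 3 h the target genes stood at different distances from their 19 h levels. Cyp1a1 averaged 14.53 at 19 h and 13.99 at 3 h after TCDD in H/W, beside 4.07 after corn oil. In L-E it averaged 14.53 at 19 h and 14.10 at 3 h, beside 3.98 after corn oil. Like Tiparp, Cyp1a1 in the 3 h livers was thus far above its level in the corn oil livers of 19 h. All corn oil values here are those of 19 h, since no corn oil rats were sampled at 3 h. Cyp1b1 averaged 11.71 ± 0.54 (SD, n = 4) at 19 h and 4.31 ± 0.42 at 3 h after TCDD in H/W, beside 3.84 ± 0.25 after corn oil. In L-E it averaged 12.96 ± 0.67 at 19 h and 5.11 ± 0.93 at 3 h, beside 3.47 ± 0.21 after corn oil. Its 3 h means lay much closer to the corn oil means than to the 19 h means. No test of Tiparp against these genes was made, and the 3 h arrays are those of scan day 5.

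**Figure D5:**
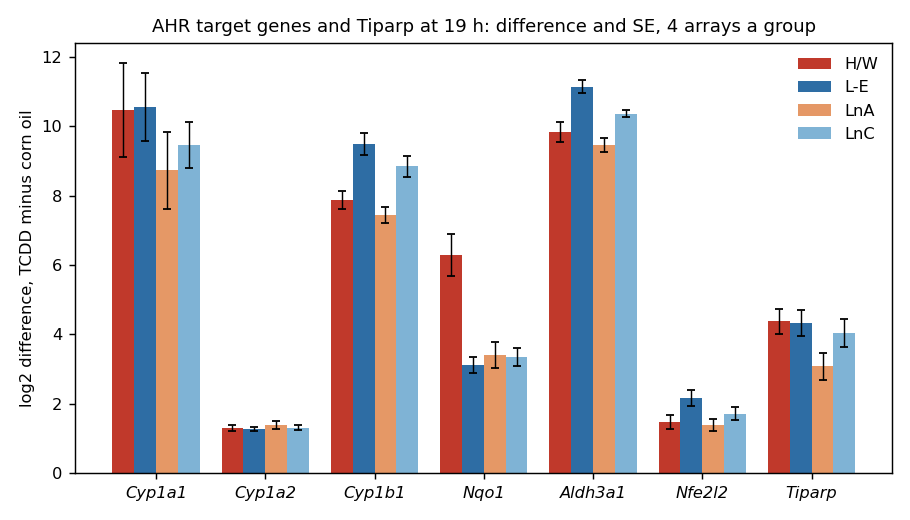
Log2 difference between TCDD and corn oil at 19 h (vertical axis) of 6 AHR target genes and Tiparp (horizontal axis) in the 4 strains/lines, with bars from 0 and the SE as error bars. Tiparp lies at 3.08 to 4.37, and the taller bars of Cyp1b1 and Aldh3a1 belong to genes with corn oil means of 2.82 to 3.84, near the lower end of the scale.

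Other genes around the receptor were read from lists as well. Of 21 measured chaperones and co-chaperones of HSP90, 0 passed the test in H/W, L-E and LnC, and 1 was called higher in LnA. Of all genes, 0.394% were called in H/W, 0.912% in LnA, 1.86% in L-E and 1.05% in LnC. At an unadjusted p under 0.05 there were 3 in H/W, 5 in LnA, 5 in L-E and 2 in LnC, beside 12.2%, 14.3%, 19.0% and 15.0% of all genes. The gene called in LnA was Hsph1, a large heat shock protein of the HSP110 family. Its means in LnA were 8.98 after TCDD and 8.24 after corn oil (difference 0.74, SE 0.09, limma adjusted p = 0.00767). This call was lost with the replicate block (0.0698), without any 1 of the 8 arrays (up to 0.0322) and in the fit over all 8 groups (0.0633). Its differences elsewhere were 0.88 in H/W (adjusted p = 0.194), 0.99 in L-E (adjusted p = 0.0286) and 0.41 in LnC (adjusted p = 0.695). The median difference of the 21 was 0.09 in H/W, 0.20 in LnA, 0.15 in L-E and 0.10 in LnC.

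Relatives of ARNT in the bHLH-PAS family (6 of 13 measured), AHR coregulators and turnover factors (15 of 18) and ADP-ribosyl transferases and hydrolases other than Tiparp (15 of 19) had 0 genes past the threshold in all 4 strains/lines. These counts are to be read against the called shares of all genes given for the chaperones. At an unadjusted p under 0.05 the ARNT relatives held 0 in H/W, 2 in LnA, 1 in L-E and 1 in LnC. The coregulators held 2, 1, 3 and 1, and the ADP-ribosyl enzymes 0, 1, 2 and 2, in the same order of strains/lines. These numbers are to be read against the shares of all genes at an unadjusted p under 0.05 given for the chaperones. Their median differences lay between -0.07 and 0.15.

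Among 5903 genes with at least median signal, those whose pattern over the 40 arrays was most like that of Tiparp were Cyp1a1 (Pearson's r 0.95), Nfe2l2 (0.94), Aldh3a1 (0.93), Fbxo31 (0.91) and Csk (0.89). The genes most like Hsp90ab1 1375336_at were Fkbp4, a co-chaperone of HSP90 (0.94), Ltbr (0.89), Cdc34, Eif4g1 (both 0.84) and Dnajb2 (0.83). Ptges3 was most like Stip1 (0.71), a co-chaperone linking HSP70 and HSP90, the chaperonin subunits Cct2 (0.67) and Cct3 (0.66), the HSP90 activator Ahsa1 (0.66) and Dgat2 (0.63). Ahr 1369146_a_at was most like Cyp2a1 (0.83), Aldh7a1 (0.80), Mlxipl, Cdk13 (both 0.79) and Lyn (0.77), and Arnt was most like Hapstr1 (0.63), Ankrd28 (0.61), Serpinf2, Bfar (both 0.58) and Cldn1 (0.57). These are descriptions over arrays that share groups and scan days. Within the groups, after each group mean was taken off, the shared probe sets 1372701_at and 1388850_at correlated at 0.93 over the 40 arrays, the Hsp90ab1 probe sets at 0.87, and 1388850_at with Ptges3 at 0.76. Ahr 1369146_a_at and Tiparp correlated at -0.46 in the same way, whereas Ahr 1369147_at and Tiparp correlated at 0.0015. Both Ahr probe sets lie at the low end of the array scale.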

How the data were processed

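Deposited values for each probe set are on the log2 scale. They were produced under R 2.3.1 by affy 1.10.0 with GCRMA 2.4.1 (submitters' processing notes), and the deposited table was analysed unchanged. The study's methods describe RMA with another probe annotation, which was not repeated. Scanner files served for scan days only. The 57 control probe sets were dropped and no low signals were filtered. Platform annotation assigned the genes, and the symbols of the 7 member probe sets were unchanged when looked up by Entrez ID.

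Comparisons used limma 3.58.1 in R 4.3.3 (empirical Bayes, Benjamini-Hochberg over 15866 probe sets, called at an adjusted p under 0.01): TCDD against corn oil in 8 arrays of a strain/line, interactions in 16 or 32 arrays, corn oil livers in 1 fit of 16, and times in 8. For gene lists, each gene was read by its probe set of highest mean. Genes named were the members, at most 4 called genes per list and strain/line (largest difference first) and the 5 genes most correlated with each member. The fits were tested on simulated data. 1 array was used per rat, and the 4 per group limit the precision.

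Replicate numbers carry no stated pairing. Over 3127 probe sets with a variance above 0.1, deviations of same-numbered treated and control arrays were compared. Pearson's r was 0.100 to 0.132 in LnA, 0.020 to 0.157 in H/W, 0.063 to 0.340 in L-E and -0.29 to 0.036 in LnC. A cut of r above 0.1 in every pair was met in LnA alone, and narrowly. Blocked LnA values of the members, the AHR targets and Hsph1 are given where they change a call, with those of Tiparp and Ahr elsewhere. Alternatives were other normalizations, filters, weights, blocks and leaving out arrays. The members and lists were chosen with earlier results of these data known.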

Additional observations from a re-analysis of the deposited data

Results flagged for a closer look

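In 10 of 90 sets of 4 livers (9 probe sets in 10 groups), the highest or lowest value stood apart from the other 3 by Dixon's test at 95%, which chance alone does in about 1 of 20 sets. The Ahr cases were 1369146_a_at at 2.64 in H/W replicate 2 at 3 h after TCDD (others 3.01 to 3.06) and 1369147_at at 3.18 in LnC replicate 4 after TCDD (others 3.06 to 3.08). The Arnt cases were 4.49 in H/W replicate 3 at 3 h (others 3.44 to 3.52), 3.73 in L-E replicate 1 at 3 h (others 3.52 to 3.55) and 3.84 in LnC corn oil replicate 2 (others 3.50 to 3.55). Tiparp was 6.85 in L-E corn oil replicate 3 (others 5.64 to 5.84).

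Among the chaperones, Hsp90ab1 1375335_at was 12.58 in H/W replicate 2 at 19 h after TCDD (others 11.98 to 12.02) and 10.87 in H/W replicate 3 at 3 h (others 10.91 to 10.92). Hsp90ab1 1375336_at was 12.51 in LnA replicate 3 after TCDD (others 12.70 to 12.73), and the shared probe set 1388850_at was 9.75 in LnA replicate 1 after TCDD (others 10.05 to 10.09).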

How the results depend on the processing

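Of 288 alternative counts of called member probe sets, 256 stayed within 1.5 times the reported count. Most comparisons had a reported count of 0, which could only stay or rise. This total therefore says little about how firm the calls were. In the TCDD responses at 19 h, the count in L-E was 2 with scan day as a block and in 1 fit over the 8 groups. In LnC it was 1 in the fit over the 8 groups and 0 with the replicate block. In H/W it was 0 with scan day or the replicate number as a block, and in LnA it was 0 with quantile normalization, median centring or the replicate block. The replicate block also gave 0 for 19 h minus 3 h in H/W and 1 for LnA minus H/W in corn oil livers. LnA minus H/W further gave 1 without low signals and with array weights, and 1 probe set per gene gave 1 for LnC minus L-E and for 19 h minus 3 h in H/W. Leaving out 1 array gave counts of 1 to 2 in LnC, 0 to 1 in H/W, 0 in LnA, 0 to 1 in the corn oil comparisons H/W minus L-E and LnA minus H/W, and no other count changed. The cause was not tested. For single probe sets, 2466 of 2517 alternatives were called or uncalled as reported, 43 lost a call and 8 gained one, and 0 called differences changed sign. Most of the 2517 belong to differences that were not called, which could not lose a call. The 43 losses all fall on the few called differences. An uncalled difference changed sign in 105. Among the list genes, the replicate block also ended the calls of Cyp1a1, Nfe2l2 and Nqo1 in L-E and LnC, Cyp1a2 in LnC and Nqo1 in H/W. Quantile normalization and median centring each ended those of Cyp1a1, Nqo1, Nfe2l2 and Hsph1 in LnA, and quantile normalization and scan day as a block that of Nqo1 in H/W.

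Over the whole array, settings other than leaving out arrays called 28 to 288 probe sets for the TCDD response in H/W (58 as reported), 15 to 255 in LnA (124), 50 to 764 in L-E (266) and 6 to 465 in LnC (143). They called 185 to 2668 for LnC minus L-E in corn oil livers (362), 144 to 445 for LnA minus H/W (269), 104 to 224 for H/W minus L-E (129) and 41 to 224 for LnA minus LnC (60). For 19 h minus 3 h the counts were 114 to 1112 in H/W (674) and 62 to 744 in L-E (545), and at 3 h they were 49 to 337 (281).

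The block fits lose degrees of freedom, and same-numbered arrays are not known to be related in any strain/line. Ahr and Arnt signals lie at the low end of the scale. With 4 livers a group, a difference that missed the threshold was not shown to be absent.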
